A study of Mus musculus with 6 samples.

Results

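Svop, Plch2, Hydin and Disp2 are 4 of the 14291 genes measured in fat from wild-type and Prmt5 knockout mice. They were taken by symbol, as transcripts typical of other tissues that were scarce in the wild-type libraries and higher in the knockout libraries. They were selected on their counts and fold change in the same 6 libraries that are described here, so the genotype difference of these genes is given as a description, with no test. All 4 symbols had a row. The description fits Disp2 least, since it held 83, 119 and 159 counts in wild-type replicates 1 to 3. The tissue is labelled epididymal white adipose tissue, the visceral fat pad along the epididymis. RNA was extracted with Trizol, enriched for polyA and sequenced on an Illumina HiSeq. The wild-type group held 3 libraries from mice with floxed Prmt5 alleles (Prmt5flox/flox), and the knockout group held 3 libraries written as Prmt5AKO. The labels name neither the Cre driver, the deleted cell type nor the age of the mice, and they do not say that the libraries came from separate animals. The spread between libraries may therefore be technical.

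Svop, Plch2 and Hydin are known from tissues other than fat. Svop encodes a membrane protein of synaptic vesicles that belongs to the major facilitator superfamily of transporters and is related to the SV2 proteins. It is found in neurons and neuroendocrine cells. Plch2 encodes phospholipase C-eta2, a calcium-sensitive enzyme of brain and neuroendocrine tissue. Phospholipases C split the membrane lipid PIP2 into inositol trisphosphate, which releases calcium from stores, and diacylglycerol, which activates protein kinase C. Hydin encodes a very large protein of the central pair apparatus of motile cilia, and mice with a mutated Hydin develop hydrocephalus. Disp2 is a paralog of Disp1, the Dispatched protein that releases lipid-modified Hedgehog ligands from the cells that make them.

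The upstream sequences of Hydin and Plch2 are shown because both transcripts were nearly silent in wild-type fat and because the Hydin start site carries a motif known from ciliary genes. RefSeq promoter entries (GRCm38.p6, the assembly behind mm10) matched 2 of the 4 symbols, with 1 entry for Hydin and 2 for Plch2. Each line gives the 250 bases before an annotated start on the strand of the gene, 5′ to 3′. Capitals mark the X-box inverted repeat GTTGCNNNNGCAAC in Hydin and the GC box GGGCGG in Plch2. The Hydin sequence lies at chr8:110266727-110266976 on the plus strand. The Plch2 sequences lie at chr4:155011026-155011275 and chr4:155019429-155019678 on the minus strand.
Hydin: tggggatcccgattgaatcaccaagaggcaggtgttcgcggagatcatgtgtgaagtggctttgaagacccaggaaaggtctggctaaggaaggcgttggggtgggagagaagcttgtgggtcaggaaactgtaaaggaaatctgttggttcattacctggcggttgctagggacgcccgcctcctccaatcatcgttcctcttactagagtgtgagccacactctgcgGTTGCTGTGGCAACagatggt
Plch2, near start: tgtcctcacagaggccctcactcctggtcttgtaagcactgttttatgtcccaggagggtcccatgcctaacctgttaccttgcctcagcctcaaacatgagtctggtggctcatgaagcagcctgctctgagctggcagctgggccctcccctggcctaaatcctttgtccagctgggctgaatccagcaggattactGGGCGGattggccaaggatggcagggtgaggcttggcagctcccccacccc
Plch2, far start: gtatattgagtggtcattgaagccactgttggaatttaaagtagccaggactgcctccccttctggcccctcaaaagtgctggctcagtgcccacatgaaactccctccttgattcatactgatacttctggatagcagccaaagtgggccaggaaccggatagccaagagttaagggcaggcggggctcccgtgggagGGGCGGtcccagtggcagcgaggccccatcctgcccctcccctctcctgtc

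Regulatory factor X proteins, which control genes of cilia, bind repeats of the X-box kind. The repeat began 21 bases before the Hydin start and stood in 0.14% of 32851 promoters (46 entries). It was searched after the sequence had been read, in letters that read the same on both strands, and no such match occurred in either Plch2 window. Of 37 listed motile cilia genes with a promoter entry, 1 other than Hydin (Cfap44) held these letters. Each Plch2 window held 1 GC box, a sequence present in 32.7% of promoters on either strand. A CCAAT box, present on either strand in 33.8%, stood 64 bases before the Hydin start and 45 bases before the near Plch2 start. None of the 3 windows held TATAAA (12.4% of promoters), CACGTG (6.02%) or TGACGTCA (1.55%). CG dinucleotides numbered 9 in the Hydin window, 1 in the near Plch2 window and 5 in the far one, against a median of 6 over all promoters. A match in letters is a description and not a bound site.

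Of the libraries as a whole, total counts ran from 17489530 to 26403882. Prmt5 measured 37.5, 59.9 and 40.8 CPM in the 3 wild-type libraries and 14.8, 22.4 and 28.5 CPM in the 3 knockout libraries, with each knockout library below each wild-type library. Its log2 fold change of -1.10 did not pass (adjusted p = 0.0913, edgeR). By these CPM, transcript remained in the knockout fat, and the cells it came from were not tested. CPM are library-size-normalised read counts, scaled by edgeR's TMM factors. The deposited p-values came from a test with a batch term that sets replicate 1 of either genotype apart from the rest, and the fit with that term is used here. It called 72 of 14291 genes at an adjusted p under 0.05, which is 0.504% (0.385% higher and 0.119% lower in the knockout). A fit with genotype only called 0 genes, which is 0.0%, with 1233 genes at an unadjusted p under 0.05 (edgeR's quasi-likelihood test). DESeq2 with the batch term called 1565 genes. All 12 listed fat cell markers were measured. None of 4 Y-linked genes had a row, while Xist was counted in all 6 libraries, at 45.6 to 1040 CPM (log2 fold change -1.84, adjusted p = 0.191, edgeR). The male depot named in the labels and these counts therefore point different ways.

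Svop was barely counted in wild type and clearly present in each knockout library. The raw counts were 3, 4 and 4 in wild-type replicates 1 to 3 and 166, 81 and 119 in knockout replicates 1 to 3. In CPM these are 0.133, 0.156 and 0.149 against 8.11, 3.69 and 5.88. The genotypes did not overlap, and the lowest knockout library lay 23.7-fold above the highest wild-type library. The means were 0.146 ± 0.0116 CPM and 5.90 ± 2.21 CPM (SD, n = 3 each), with a log2 fold change of 5.23 (SE 0.52). Summed over libraries, 366 counts stood against 11, a ratio of 39.9 with an exact 95% interval of 22 to 80.6 that covers counting error only. The wild-type libraries differed less (coefficient of variation 7.95%) than counting error alone would give at these counts (52.6%). Their close agreement is therefore no measure of precision.

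Plch2 showed the same contrast at slightly higher counts. Wild-type replicates 1 to 3 held 7, 9 and 10 counts, and knockout replicates 1 to 3 held 293, 190 and 176. The CPM were 0.311, 0.350 and 0.372 against 14.3, 8.66 and 8.70. Again the genotypes were fully apart, with knockout replicate 1 the highest library and replicates 2 and 3 alike. The 95% Poisson interval of knockout replicate 1 was 12.7 to 16.1 CPM and did not reach those of the other knockout libraries (7.47 to 9.98 and 7.47 to 10.1). The means were 0.344 ± 0.0312 and 10.6 ± 3.25 CPM, with a log2 fold change of 4.87 (SE 0.40). The count ratio was 30.4 (659 counts against 26, interval 20.5 to 46.9).

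Hydin was likewise scarce in wild type, with a different knockout library on top. The counts were 10, 5 and 9 in wild-type replicates 1 to 3 and 117, 185 and 88 in knockout replicates 1 to 3. This gives 0.444, 0.195 and 0.335 CPM against 5.72, 8.43 and 4.35 CPM. The knockout libraries all lay above the wild type, the lowest of them 9.81-fold above the highest wild-type library. Means were 0.324 ± 0.125 and 6.17 ± 2.08 CPM, and the log2 fold change was 4.25 (SE 0.52). The count ratio was 19.5 (390 against 24 counts, interval 12.9 to 30.8). Its wild-type spread of 38.5% was close to the counting error of 36.6%.

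Disp2 was the only member with a firm wild-type level. Counts were 83, 119 and 159 in wild-type replicates 1 to 3 and 763, 1607 and 713 in knockout replicates 1 to 3. The CPM were 3.68, 4.63 and 5.92 against 37.3, 73.2 and 35.3. The genotypes did not overlap, and knockout replicate 2 was the highest library, as it was for Hydin. Means were 4.74 ± 1.12 and 48.6 ± 21.4 CPM, with a log2 fold change of 3.35 (SE 0.33) and a count ratio of 10.2 (3083 against 361 counts, interval 9.18 to 11.4). In the knockout the spread between libraries (44.0%) was far above the counting error (3.29%). The tissue was sequenced whole, so more cells that make a transcript and more of it per cell cannot be told apart for any of the 4 genes.

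**Figure D1:**
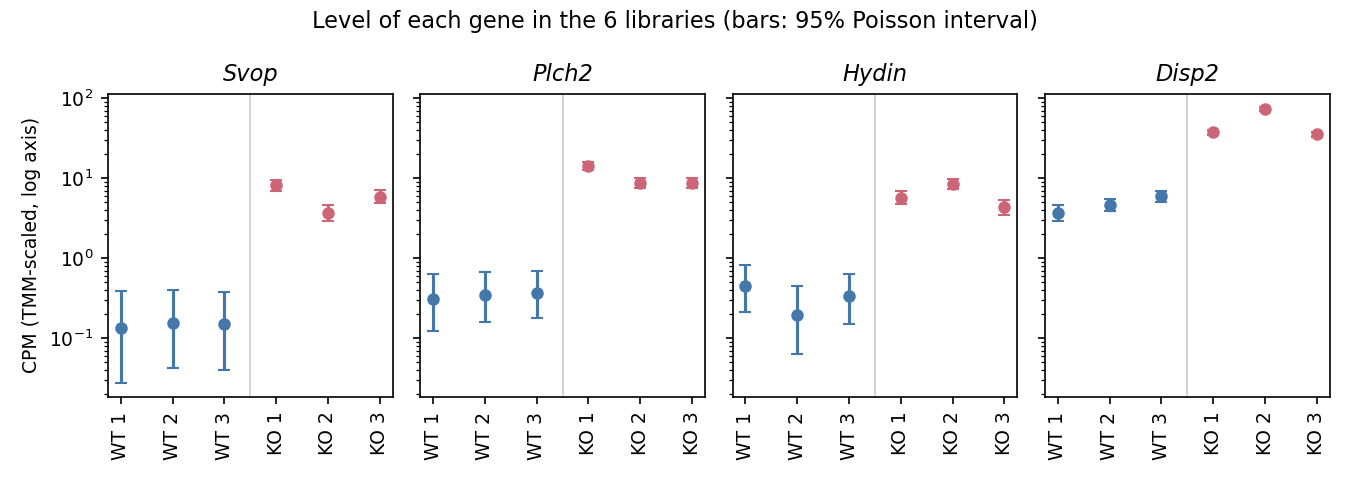
Level of Svop, Plch2, Hydin and Disp2 in CPM (log axis) in the 3 wild-type (WT, blue) and 3 knockout (KO, red) libraries, with bars for the exact 95% Poisson interval of each count. Every knockout point lies above every wild-type point of the same gene, Svop and Plch2 are highest in knockout replicate 1 and Hydin and Disp2 in knockout replicate 2.

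By size of log2 fold change the 4 genes were numbers 1 (Svop), 2 (Plch2), 6 (Hydin) and 13 (Disp2) from the top of 14291. All 3 knockout libraries lay above all 3 wild-type libraries for 8.32% of all genes, and all below for 6.2%. Since the members were chosen for this contrast, nothing is read from these places. Svop, Plch2 and Hydin also entered the table by way of the knockout libraries: the least third-highest CPM of any gene in it was 0.606, and these 3 genes were below that value in every wild-type library. The table held 37 genes of this kind and 43 for which all 3 knockout libraries were below it. Such genes had to differ to be listed. Disp2 was above that value in all 6 libraries. For the value of 0.606 and the genes set against it, CPM were taken on raw library totals, without TMM factors. The log2 fold changes of the authors' deposited table were 5.23, 4.87, 4.25 and 3.35 for Svop, Plch2, Hydin and Disp2.

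Levels of different genes can be compared only per length. Per kilobase of exon, Disp2 was the highest in both genotypes, at 0.716 ± 0.169 CPM per kilobase in wild type and 7.33 ± 3.22 in knockout. Plch2 (1.89 ± 0.583 CPM per kilobase) and Svop (1.85 ± 0.694) followed in the knockout and did not differ beyond their spread. Hydin was the lowest, at 0.391 ± 0.132 CPM per kilobase in knockout and 0.0206 ± 0.00791 in wild type. In wild type Plch2 (0.0617 ± 0.00559) lay above Svop (0.0458 ± 0.00364), a gap that 26 and 11 counts cannot resolve. Among all genes, unscaled for length, the knockout levels in CPM were higher than those of 25.8% (Svop), 35.4% (Plch2), 26.5% (Hydin) and 72.1% (Disp2) of genes. Svop, Plch2 and Hydin thus lay in the lower part of the range in the knockout too.

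The count ratios are given within each part of the batch as a description. Ratios above 1 there follow from the choice of genes whose genotypes do not overlap in these libraries. Within replicate 1 the count ratio of knockout to wild type was 60.9 for Svop (interval 20.5 to 298.0), against 31.2 within replicates 2 and 3 (15.5 to 73.2). For Plch2 the ratios were 46.1 (22.1 to 116.0) and 24.0 (15.2 to 40.3). Both genes thus had the higher ratio in replicate 1, with intervals that overlap. Hydin went the other way, with 12.9 (6.76 to 27.6) in replicate 1 and 24.3 (14.2 to 45) in replicates 2 and 3. The Disp2 ratios were 10.1 (8.06 to 12.9) and 10.4 (9.18 to 11.8). Replicate 1 holds 1 library of each genotype, so its ratios have no replicate error.

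**Figure D2:**
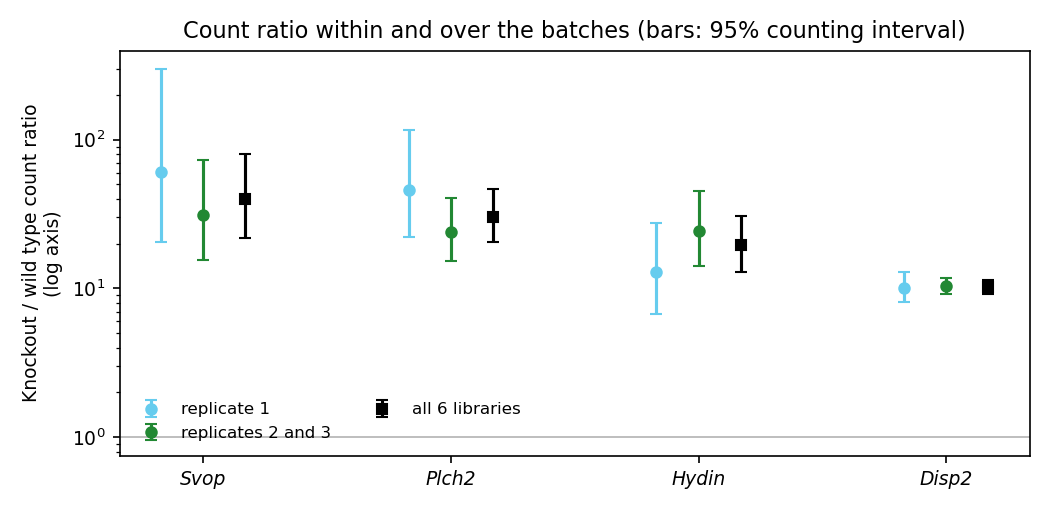
Ratio of knockout to wild-type counts (log axis, scaled by effective library size) for each gene within replicate 1, within replicates 2 and 3 and over all 6 libraries, with exact 95% intervals for counting error only. All 12 ratios lie above 1, from 10.1 for Disp2 within replicate 1 to 60.9 for Svop within replicate 1.

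Genes of the same families and pathways, and markers of other cell types, were listed beside the members. Of 148 measured genes of these lists 1 passed at an adjusted p under 0.05, S100b, a share near the 0.504% of all genes and so no result about the lists. The members were selected for their fold change, so a list median below theirs is not a finding. Over all genes the median was -0.046, and 47.6% lay above 0.

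Among synaptic vesicle and exocytosis genes, for Svop, 16 of 25 had a row, 0 passed in either direction and 7 lay above 0, with a median log2 fold change of -0.13. Genes of the list pointed both ways. Syn2, which tethers synaptic vesicles, stood at 14.7, 14.3 and 16.3 CPM in wild type and 5.67, 5.06 and 5.34 CPM in knockout (log2 fold change -1.50, adjusted p = 0.0567, edgeR). Syp, the vesicle protein synaptophysin, stood at 24.9 ± 6.13 and 48.0 ± 8.37 CPM (0.94, adjusted p = 0.125, edgeR). Rab3a, a small GTPase of vesicle release, stood at 14.1 ± 1.99 and 23.2 ± 8.39 CPM. Of the closest relatives of Svop, Svopl stood at 2.33 ± 0.392 and 1.89 ± 0.598 CPM (-0.29, adjusted p = 0.684, edgeR) and Sv2a at 2.73 ± 2.07 and 0.967 ± 0.499 CPM (-1.30, adjusted p = 0.199, edgeR). Sv2b, Sv2c, Syt1 and Snap25 had no row and were not analysed here.

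Plch2 was the only member of the eta class with a row, since Plch1 had none. Of 17 other phospholipase C and related genes 14 were measured, 7 of them above 0, with a median of 0.02 and 0 calls. The inactive relative Plcl2 stood at 19.4 ± 4.74 and 32.3 ± 8.15 CPM (0.73, adjusted p = 0.124, edgeR). Plce1, the Ras-regulated form, stood at 20.6 ± 10.4 and 10.6 ± 5.62 CPM (-0.98, adjusted p = 0.152, edgeR). Plcb4, a G protein-coupled form, varied more within genotypes than between them, at 50.5, 5.22 and 27.7 CPM in wild type and 37.9, 3.46 and 5.04 CPM in knockout. Plcb3, another G protein-coupled form, stood at 49.6 ± 10.3 and 64.2 ± 11.8 CPM. Summed over the 14 genes, the level was 217.0 to 369.0 CPM in wild type and 235.0 to 371.0 CPM in knockout. Plch2 reached at most 14.3 CPM on that scale, which is not corrected for length. Of 31 genes that supply PIP2 or act on its products, 30 were measured, 18 lay above 0 and 0 passed (median 0.15). Dgke and Dgkz, kinases that clear diacylglycerol, had log2 fold changes of -0.96 and 0.60, Cdipt, which makes phosphatidylinositol, had 0.59 and the inositol trisphosphate kinase gene Itpka had 0.91.

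Motile cilia genes, for Hydin, were mostly without a row, 18 of 47 being measured. The master regulators of multiciliated cells Foxj1, Mcidas and Gmnc had none, nor did the axonemal dyneins Dnah5, Dnah9 and Dnai1 or the central pair genes Spag6, Spag16 and Spag17. Those measured had 11 above 0, a median of 0.24 and 0 calls. Spef1, a microtubule-bundling protein of the central pair, stood at 8.17, 16.2 and 11.9 CPM in wild type and 19.0, 21.8 and 30.8 CPM in knockout (1.01, adjusted p = 0.112, edgeR). The dynein gene Dnah6 stood at 1.28 ± 0.199 and 0.517 ± 0.216 CPM (-1.33, adjusted p = 0.193, edgeR). Dnaaf3, which assembles dynein arms, stood at 2.24 ± 0.371 and 4.54 ± 1.87 CPM, and the radial spoke gene Rsph9 at 3.6 ± 0.865 and 6.42 ± 3.17 CPM. The summed level was 120.0 to 179.0 CPM in wild type and 120.0 to 287.0 CPM in knockout. Of this, Tppp3 alone held 69.6, 128.0 and 115.0 CPM in wild type and 53.3, 136.0 and 201.0 CPM in knockout. The sum therefore largely follows that gene. Hydin was highest in knockout replicate 2 and the sum, like Tppp3, was highest in knockout replicate 3. Whether ciliated cells had a part in the Hydin counts was not tested.

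Hedgehog pathway genes, for Disp2, leaned towards lower values, with 5 of 20 measured genes above 0, a median of -0.36 and 0 calls. The ligand genes Shh and Ihh, Disp3 and the ligand-release gene Scube2 had no row. Disp1 stood at 11.6, 10.2 and 8.45 CPM in wild type and 5.62, 9.39 and 9.69 CPM in knockout (-0.32, adjusted p = 0.522, edgeR), so the genotypes overlapped for this paralog. Gli1, a transcription factor that is itself a target of the pathway, stood at 3.73, 4.48 and 3.39 CPM in wild type and at 2.10, 1.82 and 1.88 CPM in knockout (-1.0, adjusted p = 0.179, edgeR). Its genotypes did not overlap, which was so for 14.5% of all genes. Hhip, a membrane protein that binds Hedgehog ligands, was at 0.964 ± 0.824 CPM in wild type and 0.537, 0.0911 and 0 CPM in the knockout libraries (-2.50, adjusted p = 0.144, edgeR). Gpc3, a glypican that competes for the ligand, stood at 56.6 ± 16.4 and 29.3 ± 14 CPM. Gli3 stood at 6.44 ± 2.40 and 4.02 ± 2.74 CPM.

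**Figure D3:**
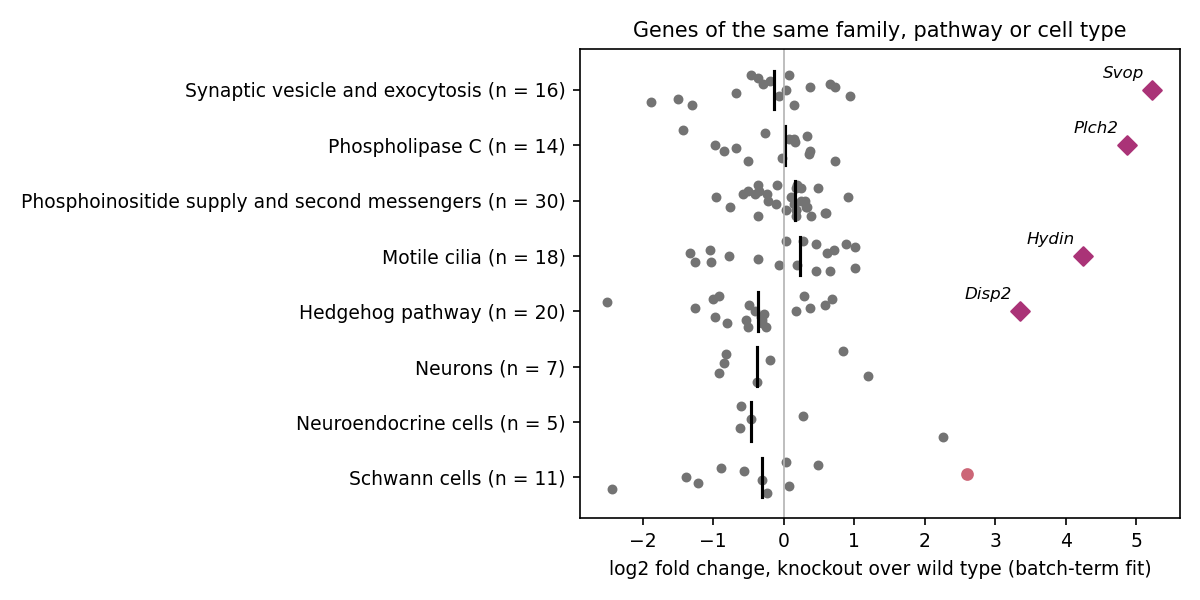
Log2 fold change, knockout over wild type, of each measured gene of 8 lists (grey points, red where called), with the list median as a black bar and the member that prompted a list as a purple diamond. The members, chosen for their fold change, lie between 3.35 and 5.23, and the list medians lie between -0.46 and 0.24. S100b, at 2.60, is the red point.

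Markers of cells that use Svop or Plch2 in other tissues were few and mostly low. Of 18 neuron markers 7 had a row, with 2 above 0, 0 calls and a median of -0.38. Their sum was 27.5 to 34.6 CPM in wild type and 15.1 to 25.4 CPM in knockout, and their part in the Svop, Plch2 and Disp2 counts was not tested. The neuron-defining genes Rbfox3, Elavl3, Elavl4, Nefl, Th and Dbh had no row. Uchl1 (-0.85), Stmn2 (-0.91), Gap43 (1.19) and Stmn3 (0.84) had the smallest p in that list. Of 12 neuroendocrine markers 5 had a row, with 2 above 0 and a median of -0.46. Chga, the granule protein chromogranin A, stood at 0.399, 0.935 and 0.558 CPM in wild type and 1.91, 4.19 and 3.07 CPM in knockout (2.26, adjusted p = 0.0815, edgeR). The Chga genotypes did not overlap, as was so for 14.5% of all genes, while Chgb, Scg2, Pcsk1 and Insm1 had no row. Among the other measured markers, Cpe (-0.60), Syt7 (-0.46) and Scg5 (-0.62) lay below 0.

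In the Schwann cell list, S100b rose from 4.92 ± 0.925 to 29.8 ± 13.9 CPM (log2 fold change 2.60, SE 0.40, adjusted p = 0.0454 in edgeR with the batch term). The libraries held 5.06, 3.93 and 5.77 CPM in wild type and 30.3, 43.4 and 15.7 CPM in knockout. S100b encodes a calcium-binding protein that fat cells also make. It had an adjusted p of 0.202 in the edgeR fit with genotype only. Mal (-1.38) and Cdh19 (-2.44) lay below 0 and were among the 7 of 11 measured genes that did so (list median -0.31). The S100b call was lost without wild-type replicate 1, without knockout replicate 1 and without knockout replicate 2, and also with limma-voom and with exonic length offsets.

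Markers of tissue beside the fat pad and of its surface were also read, with calls to be set against 0.504% over all genes. Of 9 genes of oviduct and uterus epithelium 7 had a row, with 3 above 0, 0 calls and a median of -0.13. Muc1, an epithelial mucin, stood at 0.814 ± 0.0325 and 1.76 ± 0.119 CPM, Ovgp1, the oviduct glycoprotein, at 1.22 ± 0.848 and 0.702 ± 0.024 CPM. Mesothelial markers had 0 of 7 measured genes above 0 (median -0.70) and 0 calls, with Bnc1 at -1.34 and Wt1 at -0.71. Their sum was 243.0 to 375.0 CPM in wild type and 82.1 to 454.0 CPM in knockout, lowest in knockout replicate 1, where Svop and Plch2 were highest. Of 16 epididymis and testis genes, 0 had a row. Fat cell markers had 5 of 12 above 0, a median of -0.14 and 0 calls, with sums of 44900 to 59400 CPM in wild type and 32400 to 47000 CPM in knockout. The largest parts of these sums were Fabp4 (15200 ± 2480 and 11300 ± 2160 CPM) and Cfd (13600 ± 2660 and 5520 ± 1120 CPM). Adipoq, Plin1, Pnpla2, Lipe and Retn were the 5 above 0, so the sums are no measure of fat cell content. The part of these cell types in the members' counts was not tested.

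On the chromosomes, Svop lies on chromosome 5 (114026913 to 114091380, minus strand, mm10), with 16 exons merged over 64.5 kb. Plch2 lies on chromosome 4 (154983115 to 155010984, minus strand), with 23 merged exons. Hydin lies on chromosome 8 (110266977 to 110610253, plus strand), with 87 merged exons over 343.0 kb and an exonic length of 15783 bases, longer than 99.7% of genes. Disp2 lies on chromosome 2 (118779719 to 118795175, plus strand), with 8 merged exons, the longest of 5577 of 6629 bases. All of these exons overlap exons of the same gene in GENCODE M21. There, Plch2 extends to 155056784, so starts beyond 155010984, the near and the far one printed above among them, lay outside the counted exons.

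The 2 nearest measured genes on each side of a member gave 16 neighbours, of which 0 were called (0.504% of all genes were) and 12 lay above 0 (47.6% of all genes did). Their log2 fold changes ran from -2.44 to 1.25. Values below those of the members were fixed by the choice of the members. Ssh1, 33.2 kb from Svop, stood at 10.4 ± 3.01 and 11.7 ± 0.651 CPM. Usp30, 8.95 kb from Svop on the other side, stood at 24.4 ± 4.84 and 32.3 ± 9.24 CPM (0.37, adjusted p = 0.344, edgeR). Farther out, Coro1c had a log2 fold change of 0.63 (adjusted p = 0.162, edgeR) and Alkbh2 of 0.73 (adjusted p = 0.216, edgeR). Pank4, 2.18 kb from Plch2 on the opposite strand, stood at 19.7 ± 1.71 and 27.8 ± 4.17 CPM (0.49, adjusted p = 0.201, edgeR). The neighbours of Hydin were the most spread. Vac14, 8.38 kb beyond its end on the same strand, stood at 52.0 ± 17.7 and 111.0 ± 39.6 CPM (1.05, adjusted p = 0.0908, edgeR), and Mtss1l at 48.5 ± 1.91 and 124.0 ± 71.5 CPM (1.25, adjusted p = 0.12, edgeR). On the other side Cmtr2 had a log2 fold change of -0.38 and Zfp612 of -2.44 (adjusted p = 0.134, edgeR). Near Disp2, Inafm2 (-0.10) and Ivd (-0.11) lay close to 0, and Knstrn was at 0.41 (adjusted p = 0.487, edgeR).

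**Figure D4:**
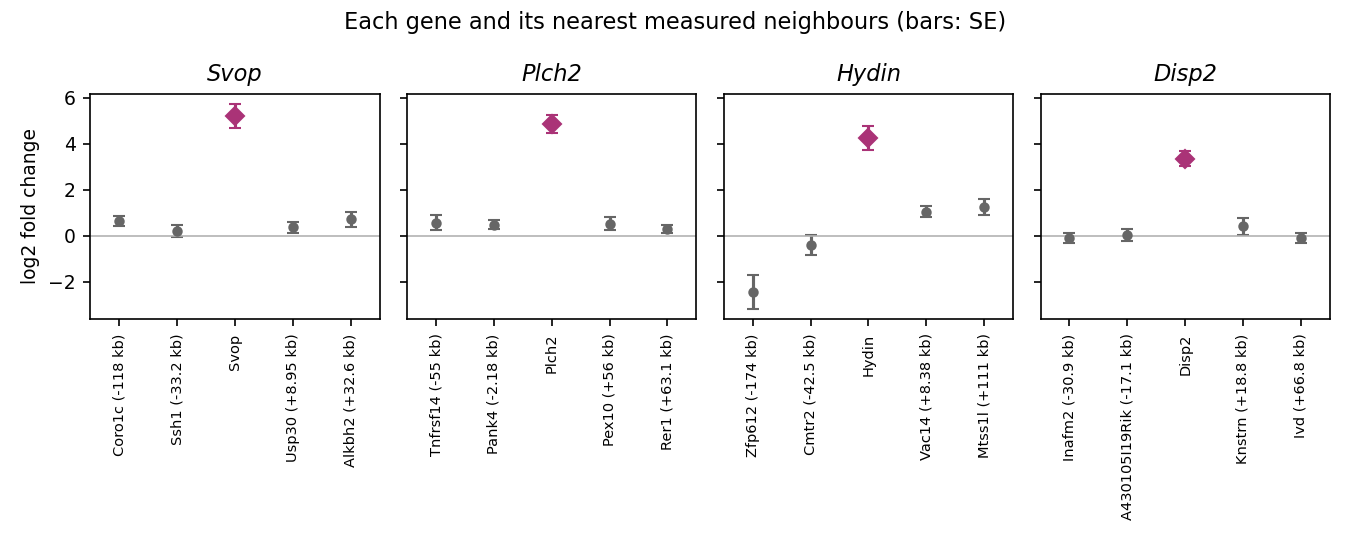
Log2 fold change with SE for each member (purple diamond) and its nearest measured genes in chromosome order (grey points, distance in kb in the label). The neighbours lie between -2.44 and 1.25 and the members, chosen for their fold change, at 3.35 to 5.23.

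In the M21 annotation, longer transcripts of Usp30 share 161 exonic bases with Svop on the opposite strand. The antisense gene Gm26832 shares 237 with Hydin at its start, and the annotation gave 0 overlapping genes for Plch2 and Disp2 over the counted span. The labels do not say whether counting used the strand, so reads in those stretches cannot be told apart. The share of reads from them was not tested.

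The members resembled each other over the libraries, which the choice of high knockout and low wild-type values largely fixes. Pearson's r of log2(CPM + 0.25) over the 6 libraries was 0.995 for Svop with Plch2 and 0.98 for Hydin with Disp2, and 0.932 to 0.973 for the other 4 pairs. These are descriptions with no test, and the libraries share the genotype contrast. Among 1382 named genes with an SD of at least 1 on that scale, the patterns most like Svop were those of Plch2, Hist1h4d (0.9845), Gldc (0.9841) and Gtse1 (0.9829). For Plch2 they were Gtse1 (0.9956), Svop, Hist1h4d (0.9947) and Gldc (0.9897). Gldc, the glycine cleavage enzyme, stood at 1.84 ± 0.256 and 10.8 ± 0.181 CPM, and Gtse1, a microtubule-binding protein of dividing cells, at 1.19 ± 0.114 and 10.6 ± 2.67 CPM. For Hydin they were the histone genes Hist1h4c (0.9886) and Hist1h4d (0.9821), the proton pump subunit gene Atp6v1c2 (0.9862) and the potassium channel gene Kcnh2 (0.9829). For Disp2 they were the potassium channel gene Kcnj14 (0.9823), Rab26os (0.9806), Hydin (0.9804) and the cell cycle inhibitor gene Cdkn1a (0.9795). Histone H4 genes are nearly identical in sequence, so their counts are uncertain. An r above 0.9 was reached by 31 genes for Svop, 32 for Plch2, 33 for Hydin and 51 for Disp2.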

How the data were processed

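PolyA RNA-seq of 6 libraries (3 wild type, 3 knockout) was grouped by sample title. TopHat2, HTSeq 0.6.1 and the build mm10 are listed in the submitters' processing notes without a role. The authors deposited raw counts for 14291 genes and, per the file headers, log2 RPKM, a log2 fold change, p-values and an exonic length (other unit, bases). Low genes had been left out, so filterByExpr removed none. Counts were tested with edgeR 4.0.16 (TMM, glmQLFit, glmQLFTest, Benjamini-Hochberg over all genes, threshold 0.05) in R 4.3.3. The batch, replicate 1 against 2 and 3, is the grouping whose fit gave back the deposited p-values (median absolute log10 ratio 4.73e-08, against 0.184 to 0.269 otherwise). The sheet name holds the word batch and the labels do not explain it. The fit had 3 residual degrees of freedom and a biological coefficient of variation of 0.32. SEs come from the fold change and F statistic.

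Total counts of 17489530 to 26403882 leave genes under 1 CPM with few reads. Intervals are exact (Poisson or conditional Clopper-Pearson, 95%) and cover counting error only, since reads are not independent molecules. The edgeR fit with the batch term was tested on simulated data. The members and lists were chosen with earlier results of these data known. Named were the members, Prmt5, close relatives, called genes and up to 4 with the smallest p of each list, neighbours, and the 4 most alike genes (named genes only, pseudocount 0.25). Some genes that this rule takes are left out here. List symbols were matched by older names where needed. Promoter sequences came from RefSeq. Alternatives were genotype only, a replicate block, RLE, other filters, DESeq2 1.42.0, limma-voom (limma 3.58.1), length offsets (loess span 0.5), a threshold of 0.1 and each library left out.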

Additional observations from a re-analysis of the deposited data

How the results depend on the processing

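The log2 fold changes of the 4 genes kept their direction and moved by less than the spread between libraries under all 21 alternatives run for each. They ran from 4.90 to 5.53 for Svop, 4.54 to 5.09 for Plch2, 3.86 to 4.74 for Hydin and 2.93 to 3.62 for Disp2, a stability that their choice in these libraries largely fixes. Counts of called genes did not hold. From 72 over all genes and 1 listed gene, genotype only gave 0 and 0, DESeq2 with the batch term 1565 and 9, and a threshold of 0.1 gave 376 and 5. Listed genes numbered 0 with limma-voom and 0 in replicates 2 and 3 alone. With a library left out and the batch term, the count over all genes was 29, 125 and 205 without wild-type replicates 1, 2 and 3. It was 21, 0 and 21 without knockout replicates 1, 2 and 3, and listed genes ran from 0 to 3 over these fits. With a library left out and genotype only, the count over all genes ran from 0 to 42 (without knockout replicate 1). Listed genes numbered 0 in each of those fits. Batch-term fits lacking a replicate 1 library take their genotype difference from the other batch alone. Exonic length offsets called Cfd and not S100b. In a principal component analysis of genes with a mean above 1 CPM, the main component held 64.8% of the variance. Wild-type replicates 1 and 3 and knockout replicate 1 lay on one side of it (-72.7, -41.8 and -49.4). Wild-type replicate 2 and knockout replicates 2 and 3 lay on the other (25.7, 60 and 78.3). This split is not the batch of the fit, and its part in the fold changes was not tested. Same-numbered libraries did not deviate together throughout (correlations 0.667, 0.589 and -0.128). The deviations were centred within each genotype over 3 libraries and are not independent, so they cannot decide whether the numbers pair the libraries. The replicate block gave 57 calls and 1 listed gene. Raw library totals gave count ratios of 37.0 (Svop), 28.2 (Plch2), 18.1 (Hydin) and 9.50 (Disp2). Wild-type counts of 10 or fewer per library in Svop, Plch2 and Hydin limit how closely their ratios are known.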
